A study of Saccharomyces cerevisiae with 27 samples.

Results

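Described here is the late phase of a heat exposure in baker's yeast, *Saccharomyces cerevisiae*, as the change in transcript levels from 120 to 240 min at 41 °C. The comparison takes the 3 arrays labelled as heat stress at 240 min and the 3 labelled as heat stress at 120 min, chosen by their titles, out of 27 arrays in 9 groups of 3, and covers all 5656 genes that could be tested. Both heat groups, like all other groups, are cells of strain X2180-1A, a haploid laboratory strain whose known mating type, a, is not stated in the labels. Cells grew in aerated 500 ml fermentors on YNB medium with 2% glucose, and at an OD600 of 0.50 the water jacket was switched so that 41 °C was reached within 5 min. The heat cultures were sampled after 10, 30, 60, 120, 240 and 360 min. Control cultures kept at 28 °C gave samples at 0 min (OD600 0.50), 120 min (0.88) and 240 min (1.5). The OD600 of the heat cultures at 120 and 240 min is not given in the labels. Replicates are biological, namely 3 cultures per temperature, each sampled at every time, so the arrays at 120 and 240 min share their cultures. Biotin-labelled cRNA was made from 20 µg of total RNA per sample.

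A rise in temperature sets off a known program in yeast. The factor Hsf1 drives chaperone genes, and the paired factors Msn2 and Msn4 drive a broad set of stress genes, while genes for ribosome production are shut down for a time. Most of these changes are known to be transient, and cells that stay at a temperature they can tolerate settle into a new state and resume growth. Separation of daughter from mother cells, histone supply and ribosome assembly are among the processes tied to growth and division. The comparison of 240 with 120 min asks what still moves in this later part of the exposure.

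The 6 heat arrays resembled each other closely. Replicates were compared on log2 deposited signals of all 9335 probe sets. They correlated with r between 0.989 and 0.995 at 120 min and between 0.99 and 0.996 at 240 min. Between the groups r was 0.981 to 0.991. On the normalized log2 scale the median SD of a tested gene among replicates was 0.109 at 120 min and 0.0782 at 240 min. The arrays at 120 min were thus the more variable. Most measures of array quality overlapped between both heat groups. The mean deposited signal of all probe sets did not, at 895 to 911 at 120 min and 839 to 892 at 240 min. The mean log2 signal of 19 probe sets for non-yeast transcripts was 5.21 to 5.34 at 120 min and 5.22 to 5.48 at 240 min, and the ratio of 3' to 5' signal of SRB4 was 3.78 to 5.09 and 4.52 to 5.51. On the control arrays of 120 and 240 min the same measures were 6.05 to 6.35 and 1.98 to 2.81, which sets both heat groups apart from both control groups. Another fit held a term for background level, and its counts are given at the end. Otherwise the part of this difference in the results was not tested.

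Between 120 and 240 min of heat 1190 of 5656 genes (21.0%) changed, with 568 higher (10.0%) and 622 lower (11.0%) at 240 min, by limma with a Benjamini-Hochberg adjusted p under 0.05. Most changes were small. The median absolute log2 change of the genes called was 0.33, and 21 genes (0.371%) changed by 2-fold or more, 18 of them upward and 3 downward. All 3 arrays of 1 group lay above all 3 of the other for 1929 genes (34.1%), among them 1113 of the 1190. Levels are normalized signals, and changes are differences of log2(signal + 115), where 115 is the 10th percentile of all values, so that changes of dim genes are understated. Both the scale and the arrays used bear on these counts. On the deposited scale, without quantile normalization, 1180 genes were called but 385 of them (32.6%) were higher and 795 lower, against 47.7% higher in the normalized values. A fit of the 6 arrays alone called 549 genes, and one without replicate 1 at 240 min called 791.

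**Figure D1:**
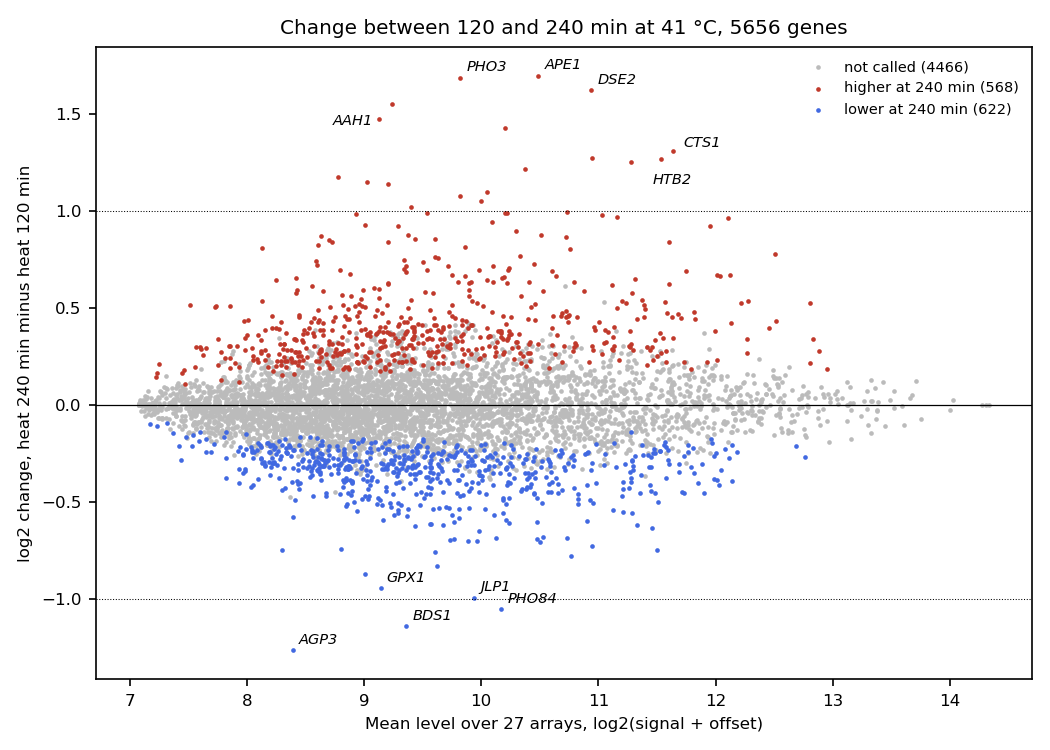
Change of each of 5656 genes between 120 and 240 min at 41 °C on the log2 scale (vertical axis) against its mean log2 level over 27 arrays (horizontal axis). Red and blue points are the 568 and 622 genes called higher and lower, grey points are not called, and dotted lines mark a 2-fold change, which 18 rises and 3 falls passed.

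No gene passed the same test in the control cultures, which aged over the same interval at 28 °C (0 of 5656, 0%, by limma, with 109 genes at an unadjusted p under 0.05). Their arrays did not overlap between 120 and 240 min for 511 genes (9.03%). The SD of all log2 changes was 0.229 under heat and 0.0884 in the controls. When the change in the controls was subtracted from the change under heat, the difference passed for 601 genes (10.6%), being positive for 308 (5.45%) and negative for 293 (5.18%). Of these, 29 positive and 2 negative differences were 2-fold or larger. On the deposited scale 628 differences passed, of which 181 (28.8%) were positive, against 51.2% in the normalized values. The count was 386 without replicate 3 at 120 min of heat and 399 without replicate 1 at 240 min of heat. Across genes, the changes under heat and in the controls, which share no array, correlated with a Pearson r of -0.162, given as a description since genes are not independent.

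**Figure D2:**
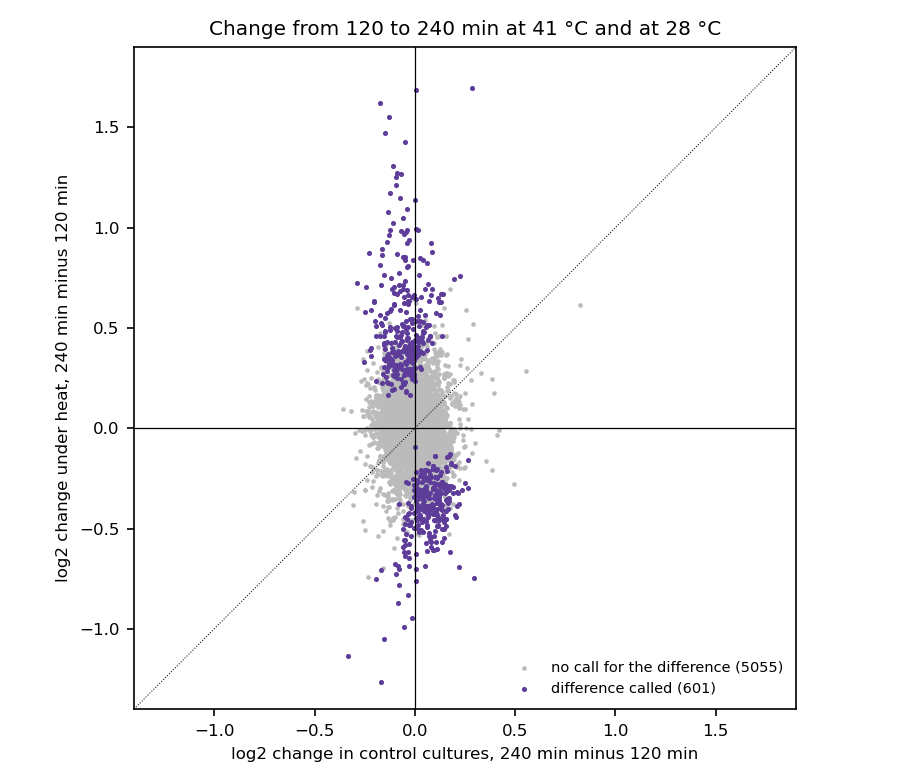
Log2 change from 120 to 240 min in the heat cultures (vertical axis) against the change in the control cultures (horizontal axis), 1 point per gene, with the line of equal change dotted. Purple points are the 601 genes whose changes differed, and the heat changes spread more widely (SD 0.229) than the control changes (SD 0.0884).

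Several of the 15 largest rises were genes of the cell wall. Of 66 measured genes of the cell wall list 25 rose and 0 fell, with a median change of 0.11 against -0.01 over all tested genes. The 45 wall proteins and enzymes held 23 of these rises, at a median of 0.23, and the 21 genes of integrity signalling held 2. CTS1, which encodes the chitinase that cuts the septum between mother and daughter, had signals of 1851, 1371 and 1333 in replicates 1 to 3 at 120 min and of 3734, 4190 and 3761 at 240 min. Every array at 240 min lay above every array at 120 min, and the rise was 1.31 ± 0.13 (SE) on the log2 scale (adjusted p = 2.5e-07). DSE2, whose product is secreted on the daughter side of the septum, went from 918, 832 and 561 to 2519, 2620 and 2560, a rise of 1.62 ± 0.18 (adjusted p = 1.2e-06). DSE4, a glucanase of the same site, went from 1306, 950 and 1131 to 2831, 2957 and 2807, a rise of 1.27 ± 0.13. These groups did not overlap either, and the arrays at 240 min lay closer together than those at 120 min.

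SUN4, a wall protein of septation, rose from 1437, 1362 and 1054 to 3384, 3125 and 3082 (1.25 ± 0.12). SCW11, a glucanase-like wall protein known to act in separation after division, rose from 511, 463 and 367 to 1058, 1031 and 1101 (1.08 ± 0.13). Neither gene's groups overlapped. PRY2, which encodes a secreted lipid-binding protein, rose by 1.43 ± 0.13, with signals of 740 to 1151 at 120 min and 2466 to 2732 at 240 min. Chosen after their values were seen, further genes of daughter cells and the wall also rose, namely DSE1 by 1.17 ± 0.16, DSE3 by 0.70 ± 0.08, AMN1, an inhibitor of mitotic exit made in daughters, by 0.99 ± 0.10, PRY3 by 0.98 ± 0.12, TOS1 by 0.97 ± 0.12 and the surface protease YPS3 by 0.89 ± 0.14. In the controls the changes of CTS1, DSE2, DSE4, SUN4 and SCW11 lay between -0.18 and -0.09, and the change under heat exceeded that in the controls for 23 of the 66 genes of the list, with 0 the other way, and for 14 on the deposited scale. All 5 genes had been lower than their time-matched controls at 120 min, CTS1 by a log2 difference of -1.88 and DSE2 by -2.58. At 240 min the differences of CTS1, DSE2, SUN4 and SCW11 were -0.47, -0.78, -0.49 and -0.58. DSE4 went from -1.02 at 120 min to 0.35 at 240 min, above its control. In a bulk sample, a larger share of cells in a stage of division and more RNA per cell cannot be told apart.

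**Figure D3:**
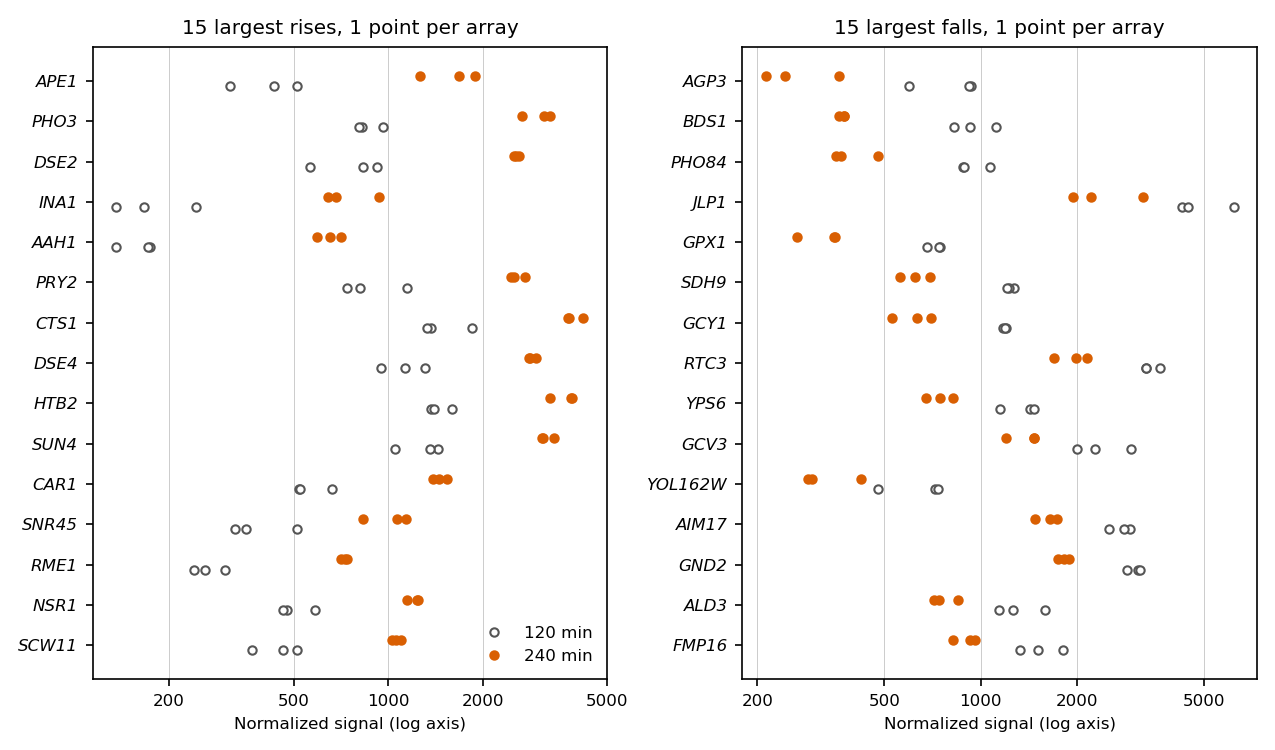
Normalized signal on a log axis for the 15 largest rises (left) and 15 largest falls (right) among genes that passed the test with separate groups and a higher mean above the median level. Open points are the 3 arrays at 120 min and filled points the 3 at 240 min, which do not overlap for any gene shown.

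Genes of the cell division cycle showed more rises than falls. In the list of mitosis and cytokinesis 13 of 37 measured genes rose and 1 fell (median 0.16), and without replicate 1 at 240 min 8 rose and 0 fell. ALK1, a haspin-related kinase, rose by 0.52 ± 0.07 from signals of 328 to 391 up to 500 to 598. BUD4, of the bud-site ring, rose by 0.46 ± 0.11 and HOF1, a cytokinesis protein, by 0.45 ± 0.09. Of 51 genes of G1 and S phase 11 rose and 2 fell (median 0.06), and 5 of the 11 cyclins were among the rises. CLN1 and CLN2, closely related G1 cyclins, rose by 0.52 ± 0.09 and 0.50 ± 0.09, PCL9 by 0.54 ± 0.07 and the S-phase cyclin CLB6 by 0.52 ± 0.05, from signals of 55.2, 57.4 and 61.5 to 134, 111 and 155. RNR1, the large subunit of ribonucleotide reductase, had a change of 0.30 ± 0.11 that missed the threshold (adjusted p = 0.062). It passed in a fit with the culture as a random block. RME1, a repressor of meiosis that is also known to act on G1 cyclin genes, rose from 260, 303 and 240 to 709, 726 and 738, a change of 1.14 ± 0.08.

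Histone genes were measured for 4 of 10 listed, since the others share probe sets or have none, and 3 of the 4 rose. HTB2 for histone H2B rose from 1597, 1370 and 1395 to 3855, 3290 and 3835, a change of 1.27 ± 0.10, and its groups were far apart. HTB1, its near-identical copy, rose by 0.42 ± 0.10, and the probe sets of such copies may share signal. HTZ1, the variant H2A.Z, rose by 0.34 ± 0.09. That call ended without replicate 3 at 120 min (adjusted p = 0.091) or replicate 2 at 240 min (0.066).

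Ribosome assembly genes that passed the test were all higher at 240 min. Of 129 measured genes of ribosome biogenesis 51 rose, 0 fell and 78 did not pass, with a median change of 0.22. The share was 22 of 67 for snoRNP and nucleolar factors, 21 of 51 for factors of the large subunit and export, and 8 of 11 for DBP helicases. Without replicate 1 at 120 min 32 rose, and a fit of the 6 arrays alone called 23, with 0 falls in both. NSR1, a nucleolar protein for the processing of ribosomal RNA, rose from 476, 583 and 463 to 1234, 1147 and 1249, a change of 1.09 ± 0.10. DBP2, an RNA helicase, rose by 1.05 ± 0.10 from signals of 236 to 302 up to 624 to 817, and DHR2, a helicase of the small subunit pathway, by 0.84 ± 0.09. NOP1, the methylase of box C/D snoRNPs, had signals of 1132, 1081 and 1010 at 120 min and 1435, 1075 and 1464 at 240 min. Its groups overlapped because of replicate 2 at 240 min, and its change of 0.27 ± 0.13 did not pass (adjusted p = 0.15), although it passed at 0.40 without that array (adjusted p = 0.044).

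Of the ribosomal proteins themselves, 0 of 81 measured genes of the cytosolic ribosome were called in either direction, at a median of 0.01, and RPL13A had a change of 0.02 ± 0.10, which lay below 0 on the deposited and median scales. The difference between assembly and ribosomal protein genes was not tested. Ribosomal protein genes come in near-identical pairs, and 57 of the 138 listed could not be measured singly. RNA polymerase I genes held 4 rises among 11, with RPA135, its second-largest subunit, rising by 0.62 ± 0.08 and RPA190, the largest, by 0.45 ± 0.07. The call of RPA190 ended with the mean of all probe sets of the gene. Over polymerases I and III together 6 of 32 genes rose and 1 fell, or 21.9% called against 21.0% of all tested genes. On the deposited scale 3 rose and 2 fell and the median turned from 0.04 to -0.02. Of 36 translation factors 1 rose, the elongation factor YEF3 at 0.21 ± 0.06, and of 31 tRNA synthetases 1 rose, ALA1 at 0.30 ± 0.06. Both calls ended on the deposited scale and with the arrays scaled to the same median, and that of YEF3 also without replicate 2 at 240 min (adjusted p = 0.067). The snoRNA gene SNR45 rose from 511, 352 and 324 to 1135, 1064 and 833, a change of 1.15 ± 0.12.

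In the list of general stress genes every call was a fall. Of 33 measured members of that list, known targets of Msn2 and Msn4, 20 fell and 0 rose, with a median change of -0.34, and for 13 of them the change under heat lay below that in the controls. GPX1, a glutathione peroxidase, fell from signals of 679, 745 and 738 to 348, 267 and 349 (-0.94 ± 0.08, adjusted p = 4.4e-08). ALD3, an aldehyde dehydrogenase, fell from 1588, 1140 and 1264 to 850, 713 and 742 (-0.70 ± 0.12), and FMP16 fell from 1805, 1328 and 1510 to 822, 926 and 961 (-0.70 ± 0.11). The groups of all 3 genes were separate. CTT1, the cytosolic catalase, fell from 960, 790 and 805 to 502, 604 and 556 (-0.53 ± 0.13). These genes were still above the time-matched controls at 240 min, the median of the list having been 2.19 at 120 min and being 1.61 at 240 min in log2 units. Such values against the controls share the heat arrays with the change itself and stand beside it as description only.

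Among the 15 largest falls were also genes of several other functions. GCY1, a glycerol dehydrogenase, fell from 1175, 1197 and 1190 to 530, 634 and 700 (-0.83 ± 0.11), and SDH9, a minor isoform of a succinate dehydrogenase subunit, from 1271, 1224 and 1211 to 559, 694 and 623 (-0.87 ± 0.12). RTC3 fell by 0.78 ± 0.09 on the log2 scale, AIM17 by 0.72 ± 0.11, GND2, an isoform of phosphogluconate dehydrogenase, by 0.71 ± 0.11, and the surface protease YPS6 by 0.76 ± 0.12, each with separate groups. In trehalose metabolism 5 of 10 genes fell and 0 rose (median -0.21), among them PGM2, phosphoglucomutase, at -0.54 ± 0.10, the trehalase ATH1 at -0.26 ± 0.08 and the synthase TPS1 at -0.24 ± 0.06. Without replicate 2 at 240 min 3 fell and TPS1 did not pass (adjusted p = 0.07), and ATH1 did not pass without any 1 of 4 arrays (highest adjusted p = 0.136). Of 12 glycogen genes 2 fell, the debranching enzyme GDB1 at -0.32 ± 0.08 and the primer protein GLG1 at -0.29 ± 0.10, the latter with a call that ended when any 1 of 5 arrays was left out (highest adjusted p = 0.133).

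HSP82, the inducible Hsp90, had signals of 8430, 9168 and 9845 at 120 min and 8719, 8777 and 9415 at 240 min, groups that overlapped, with a change of -0.03 ± 0.08 (adjusted p = 0.87). HSP104, the disaggregase, had signals of 6626, 6770 and 7430 and then 6134, 5948 and 6498. These groups did not overlap, yet the change of -0.16 ± 0.09 did not pass (adjusted p = 0.19). Its difference from the controls, where the change was 0.27, was -0.43 and passed (adjusted p = 0.026), a call that ended without any 1 of 5 arrays (highest adjusted p = 0.089). Changes that did not pass were those of HSP26, a small heat shock protein, at -0.13 ± 0.09, the membrane protein HSP30 at -0.13 ± 0.09 and HSP12, another membrane-associated stress protein, at -0.11 ± 0.10. A change of that size cannot be told from 0 at this precision, since the median SE over genes was 0.083.

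Falls among chaperones stand beside the 11.0% of all tested genes that fell. Of 9 genes for cytosolic Hsp70 and exchange factors 3 fell, the inducible Hsp70 gene SSA4 at -0.45 ± 0.12, the Hsp110 gene SSE2 at -0.40 ± 0.09 and the exchange factor FES1 at -0.35 ± 0.09. SSA4 is closely related to other SSA genes, so its signal may hold theirs. SSA1, also in this list, was the brightest tested gene on all 6 heat arrays. Quantile normalization thus set its change to 0, and its change was not measured. Of 14 genes for Hsp90 and its co-chaperones 3 fell, CDC37 at -0.35 ± 0.12, SBA1 at -0.35 ± 0.10 and TAH1 at -0.19 ± 0.06, and all 14 changes were below 0. HSP42 fell by 0.38 ± 0.10 as the only 1 of 5 in its list, XDJ1 by 0.41 ± 0.08 as the only 1 of 12 J-domain genes, and 0 of 8 genes of the CCT chaperonin were called at a median of -0.16. Without replicate 3 at 120 min the calls of SSA4, FES1, CDC37, SBA1, TAH1 and HSP42 ended, with adjusted p up to 0.25, and without replicate 1 at 240 min they ended too. Of 12 genes of mitochondrial chaperones and their protease 2 fell, ZIM17 at -0.33 ± 0.08 and the Lon protease gene PIM1 at -0.31 ± 0.11, and 5 fell on the deposited scale. PIM1 did not pass without any 1 of 4 arrays (highest adjusted p = 0.31). In the endoplasmic reticulum list 2 of 20 rose, the disulfide isomerase EUG1 at 0.27 ± 0.08 and the sensor kinase IRE1 at 0.23 ± 0.08, and the ubiquitin ligase gene HRD1 fell by 0.21 ± 0.08. All 3 calls ended when single arrays were left out (adjusted p up to 0.226), and HRD1 missed the threshold with the replicate block (adjusted p = 0.051). HAC1, the factor of the same response, had a change of -0.06 ± 0.10.

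Of 43 measured proteasome genes 22 fell, 0 rose and 21 did not pass, at a median of -0.32, and 42 changes were below 0. The core particle held 12 falls among 14 genes, the cap 9 among 19 and the assembly factors 1 among 10. RPN13, a ubiquitin receptor of the cap, fell from 1143, 941 and 1271 to 627, 736 and 712 (-0.61 ± 0.11), and RPN8, a cap subunit, from 1462, 1376 and 1964 to 1120, 991 and 1137 (-0.50 ± 0.14). PUP2, a core subunit, fell from 1888, 2092 and 2495 to 1417, 1521 and 1550 (-0.49 ± 0.10). In each of these genes replicate 3 was the highest array at 120 min. Without that array 12 proteasome genes fell and RPN8 did not pass (adjusted p = 0.083), and a fit of the 6 arrays alone called 9. RPN4, the factor known to drive these genes, had signals of 2641, 2793 and 3311 and then 2560, 2819 and 2837, with overlapping groups and a change of -0.08 ± 0.10. The change under heat lay below that in the controls for 16 of the 43 genes and above it for 0. That count ran from 5, without replicate 1 at 240 min, to 22 when single arrays were left out.

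Elsewhere in protein turnover, 6 of 25 genes for ubiquitin and quality-control ligases fell and 1 rose, with UBC8, a ubiquitin-conjugating enzyme, at -0.46 ± 0.13, DSK2 at -0.45 ± 0.10 and RAD23 at -0.40 ± 0.11, both shuttle factors. Without replicate 3 at 120 min 3 fell, and UBC8 (adjusted p = 0.112) and RAD23 (0.059) did not pass. On the deposited scale 10 fell. The largest rise of all belonged to a vacuolar enzyme. APE1, aminopeptidase I, rose from 432, 313 and 511 to 1884, 1687 and 1267, a 3.24-fold change (1.69 ± 0.13, adjusted p = 2.6e-09). Its groups were far apart, and its change in the controls was 0.29. The rest of the vacuolar list went the other way or did not pass, with 5 falls among 16 genes, including the inhibitors PAI3 at -0.59 ± 0.11 and TFS1 at -0.50 ± 0.07. Of 21 autophagy genes 2 rose and 4 fell, ATG5 at 0.30 ± 0.10, ATG3 at -0.29 ± 0.10 and ATG1 at -0.26 ± 0.07, all with calls that ended when single arrays were left out (adjusted p up to 0.233). Without replicate 1 at 240 min, and in a fit of the 6 arrays alone, 0 autophagy genes rose and 1 fell, and without replicate 2 at 240 min 1 rose and 2 fell.

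Of 71 measured genes of mitochondrial ribosomal proteins 36 fell, 0 rose and 35 did not pass, at a median of -0.22, and 69 changes were below 0. MRPS16 fell from 526, 464 and 661 to 313, 301 and 403 (-0.55 ± 0.11), MRPL49 from 638, 611 and 628 to 362, 423 and 456 (-0.49 ± 0.08) and MRPS8 from 315, 295 and 376 to 187, 200 and 213 (-0.49 ± 0.09). None of these groups overlapped. The count rested on particular arrays, being 14 without replicate 3 at 120 min, 18 without replicate 1 at 240 min and 7 in a fit of the 6 arrays alone, with medians of -0.18, -0.20 and -0.22. The change lay below that in the controls for 19 genes, a count that ran from 9, without replicate 3 at 120 min, to 33 when single arrays were left out. In the respiratory chain and ATP synthase 4 of 42 genes fell, with CYC7, the stress isoform of cytochrome c, at -0.69 ± 0.11, STF1, a regulator of ATP synthase, at -0.41 ± 0.11 and COX5B, an oxygen-regulated subunit, at -0.32 ± 0.11. Without replicate 3 at 120 min or replicate 1 at 240 min 2 fell, and on the deposited scale 7 fell. STF1 did not pass without replicate 3 at 120 min (adjusted p = 0.118), and COX5B did not pass without any 1 of 5 arrays (highest adjusted p = 0.197). Of 26 genes of the TCA and glyoxylate cycles 5 rose and 1 fell, or 23.1% called against 21.0% of all tested genes. The rises included the citrate synthases CIT2 at 0.40 ± 0.06 and CIT3 at 0.30 ± 0.05 and pyruvate carboxylase PYC1 at 0.28 ± 0.06. On the deposited scale 2 of these genes rose and 2 fell, and the median turned from 0.03 to -0.06.

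**Figure D4:**
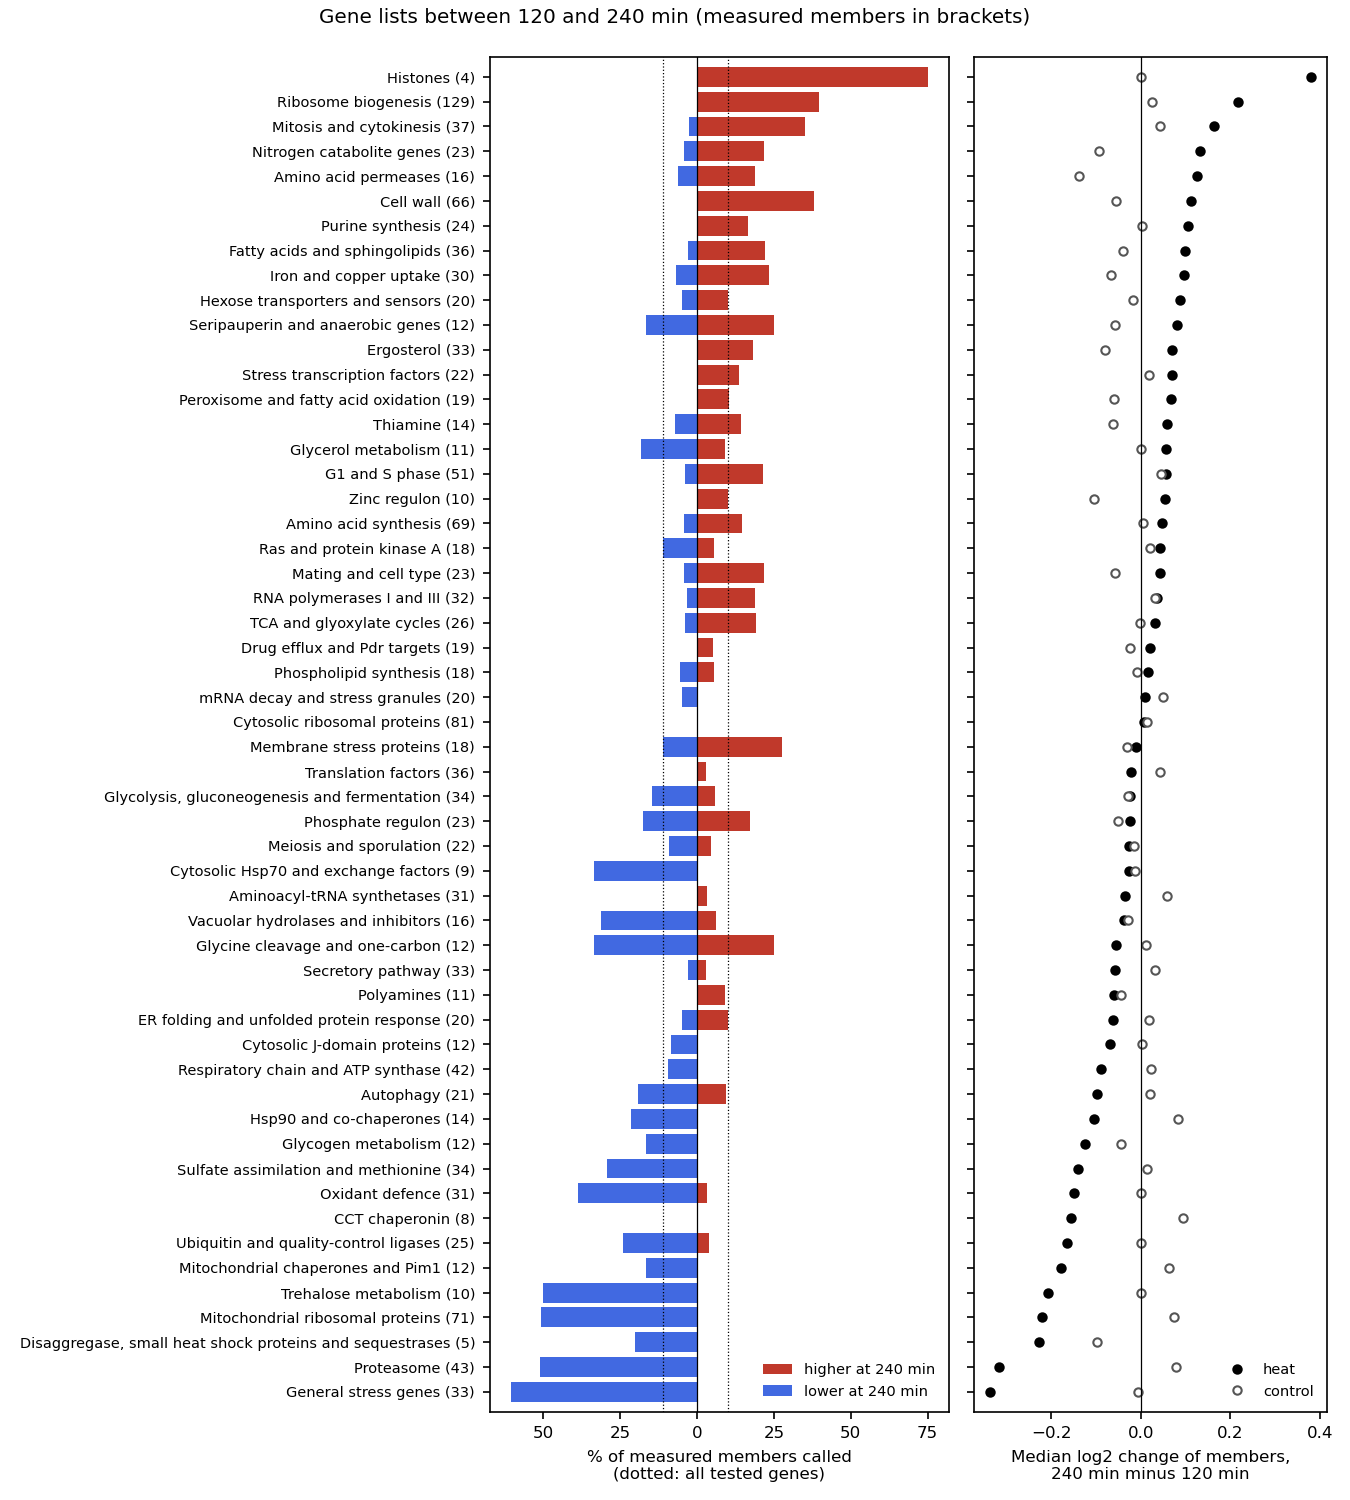
Left, share of the measured members of each of 54 gene lists called higher (red, to the right) or lower (blue, to the left) at 240 min, with dotted lines at the shares over all tested genes (10.0% and 11.0%). Right, median log2 change of the members under heat (filled) and in the controls (open), where general stress genes lie lowest (-0.34) and histones highest (0.38).

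Of 31 genes of defence against oxidants 12 fell and 1 rose, at a median of -0.15, and 8 of the falls were among the 14 genes of the glutathione system. GTT1, a glutathione transferase, fell from 3365, 3242 and 2740 to 2010, 2251 and 2000 (-0.55 ± 0.11), with separate groups. Without replicate 2 at 120 min, or without replicate 1 at 240 min, 7 fell and 0 rose. In a fit of the 6 arrays alone 6 oxidant, 2 trehalose and 4 sulfate and methionine genes fell, and 7 mitotic, 2 nitrogen catabolite and 3 iron and copper genes rose.

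In the list of sulfate assimilation and methionine 10 of 34 genes fell and 0 rose, at a median of -0.14, among them 6 of the 10 genes of sulfate assimilation, and without replicate 2 at 120 min 6 fell. MUP1, the methionine permease, fell from 1808, 2113 and 1580 to 1012, 1543 and 1156 (-0.54 ± 0.15), SUL1, a sulfate permease, from 437, 647 and 386 to 254, 416 and 255 (-0.51 ± 0.16) and MET1, of siroheme synthesis, from 2207, 2761 and 3185 to 1888, 1761 and 2166 (-0.45 ± 0.10). The SUL1 groups overlapped, replicate 2 being the highest array at both times. Calls for MUP1 and SUL1 ended without replicate 2 at 120 min (adjusted p = 0.067 and 0.171) or replicate 1 at 240 min (0.088 and 0.126). Among the 3 genes that fell by 2-fold was BDS1, an arylsulfatase that releases sulfate from organic compounds, with signals of 929, 1120 and 823 at 120 min and 375, 374 and 359 at 240 min (-1.14 ± 0.12). JLP1, a dioxygenase for the use of sulfonates, fell from 4272, 6194 and 4461 to 1951, 3221 and 2216 (-0.99 ± 0.18). The gene YOL162W fell by 0.74 ± 0.13 and, chosen after its values were seen, YOL163W by 0.75 ± 0.11, and both adjoin BDS1 (YOL164W) in the order of locus names.

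Calls among amino acid synthesis and one-carbon genes went in both directions, at 18.8% and 58.3% of members against 21.0% of all tested genes. Of 12 genes of glycine cleavage and one-carbon metabolism 3 rose and 4 fell. GCV3, a subunit of glycine decarboxylase, fell from 2288, 2007 and 2949 to 1474, 1198 and 1473 (-0.75 ± 0.13), SHM2, the cytosolic serine hydroxymethyltransferase, from 2482, 2014 and 1918 to 1354, 1367 and 1262 (-0.64 ± 0.09) and GCV1 from 318, 340 and 405 to 206, 177 and 187 (-0.62 ± 0.11). For all 3 the groups were separate. Of 69 genes of amino acid synthesis 10 rose and 3 fell, and on the deposited scale 6 rose and 3 fell with a median of -0.01 against 0.05. GDH3 and GDH1, glutamate dehydrogenases, rose by 0.99 ± 0.17 and 0.52 ± 0.13, and LYS9, of lysine synthesis, by 0.54 ± 0.10. ILV5, of branched-chain synthesis, had a change of 0.08 ± 0.08.

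Of 23 nitrogen catabolite genes 5 rose and 1 fell (median 0.13 under heat and -0.09 in the controls). CAR1, arginase, rose from 663, 520 and 522 to 1537, 1394 and 1456 (1.21 ± 0.08, adjusted p = 4.4e-10), with groups far apart. The ammonium permease MEP2 rose by 0.78 ± 0.14, with 1 array at 120 min at 4502 and the others at 2272 and 2893, and DAL3, of allantoin breakdown, by 0.71 ± 0.16. Among 16 amino acid permeases 3 rose and 1 fell. GAP1, the general permease, rose from 2107, 1148 and 1424 to 3755, 2234 and 3125 (0.92 ± 0.17), where replicate 2 was the lowest at both times, and GNP1, a glutamine permease, rose by 0.63 ± 0.11. AGP3, a permease of low specificity, showed the largest fall of all tested genes, from 932, 923 and 597 to 212, 360 and 244 (-1.26 ± 0.14). Without replicate 1 at 120 min 5 permeases rose. Of 24 purine genes 4 rose and 0 fell (2 and 1 on the deposited scale), or 16.7% called against 21.0% of all tested genes. AAH1, adenine deaminase, led them, from 173, 172 and 135 to 650, 709 and 591 (1.47 ± 0.09). It had also been 2.29 below its time-matched control at 120 min on the log2 scale. GUA1, GMP synthase, rose by 0.50 ± 0.08 and ADE13 by 0.38 ± 0.11, the latter with overlapping groups and a call that ended without any 1 of 3 arrays (highest adjusted p = 0.147). TPO2, a polyamine exporter, rose by 0.98 ± 0.10 as the only 1 of 11 genes in its list.

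PHO84, the high-affinity phosphate transporter, fell from 880, 1073 and 886 to 365, 477 and 353 (-1.05 ± 0.16, adjusted p = 7.5e-05), while the secreted acid phosphatases PHO3 and PHO5 rose. PHO3, which thiamine is known to repress, went from 827, 960 and 804 to 2679, 3284 and 3143, a 3.21-fold rise (1.68 ± 0.12, adjusted p = 9.1e-10). PHO5, which lack of phosphate is known to induce, went from 435, 407 and 312 to 754, 842 and 753 (0.85 ± 0.10). Groups were separate for all 3 genes, and PHO3 and PHO5 are similar enough in sequence that their probe sets may share signal. Over the whole list 4 of 23 genes rose and 4 fell, with 2 falls without replicate 1 or without replicate 2 at 240 min. THI7, the thiamine transporter, rose by 0.59 ± 0.11 and SNZ1, of pyridoxine and thiamine synthesis, fell by 0.38 ± 0.10. Of 14 measured thiamine genes 2 rose and 1 fell, PHO3 being 1 of the 2. These were 21.4% of the list, against 21.0% of all tested genes.

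Among metal genes 7 of 30 for iron and copper rose and 2 fell, which became 3 and 3 on the deposited scale. FET4, a low-affinity iron transporter, rose from 221, 302 and 196 to 469, 564 and 497 (0.83 ± 0.10), the multicopper oxidase FET3 by 0.52 ± 0.11 and the wall mannoprotein FIT2 by 0.52 ± 0.15, whose call ended without replicate 2 at 120 min (adjusted p = 0.082) or at 240 min (0.1). Of 10 zinc genes IZH1 alone rose, by 0.72 ± 0.11.

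Of 15 genes of fatty acid synthesis and use 6 rose and 0 fell, and over fatty acids and sphingolipids together 8 of 36 rose and 1 fell, against 7 and 4 on the deposited scale. FAA4, an acyl-CoA synthetase, rose from 1736, 1254 and 1438 to 3060, 2925 and 3110 (0.99 ± 0.10), OLE1, the fatty acid desaturase, from 1196, 1052 and 861 to 2174, 1935 and 1796 (0.86 ± 0.13), and FAS2, a subunit of fatty acid synthase, by 0.62 ± 0.07. All 3 genes had separate groups. Of 33 ergosterol genes 6 rose and 0 fell, or 18.2% called against 21.0% of all tested genes. The rises included NCP1, a reductase, at 0.45 ± 0.09, MVD1, of the mevalonate pathway, at 0.35 ± 0.08 and ERG29 at 0.35 ± 0.10. On the deposited scale 2 rose and 1 fell and the median turned from 0.07 to -0.02, and without replicate 2 at 240 min 3 rose and ERG29 did not pass (adjusted p = 0.08). In phospholipid synthesis OPI3, a methyltransferase for phosphatidylcholine, fell from 2495, 2225 and 1794 to 1529, 1191 and 1383 (-0.62 ± 0.11), and PIS1, phosphatidylinositol synthase, rose by 0.28 ± 0.09, a call that ended without any 1 of 3 arrays (highest adjusted p = 0.166).

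Membrane stress proteins moved both ways, with 5 rises and 2 falls among 18 and 3 of each on the deposited scale. Within the Sur7 family SUR7, of the eisosome-associated membrane patches, rose by 0.69 ± 0.11 and FMP45 fell by 0.70 ± 0.14. YRO2, a relative of HSP30, rose from 2988, 2700 and 2341 to 3876, 4137 and 3493 (0.50 ± 0.11).

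Of 20 hexose transporters and sensors HXT4 rose from 653, 628 and 475 to 1016, 1313 and 1120 (0.86 ± 0.15), HXT2 rose by 0.40 ± 0.11 and HXT5, known from slow growth, fell from 3401, 2505 and 2368 to 1849, 1845 and 1933 (-0.51 ± 0.10). The HXT2 call ended without replicate 3 at 120 min or replicate 1 at 240 min (adjusted p = 0.054 in both) and in a fit of the 6 arrays alone. Hexose transporter genes resemble each other, so their signals may overlap. In glycolysis, gluconeogenesis and fermentation 2 of 34 genes rose and 5 fell, or 20.6% called against 21.0% of all tested genes. The counts were 1 to 2 rises and 1 to 3 falls when any 1 of 5 of the 6 heat arrays was left out. ALD6, the cytosolic aldehyde dehydrogenase, rose by 0.53 ± 0.10 and PFK26, a kinase that makes fructose 2,6-bisphosphate, fell by 0.45 ± 0.13, a call that ended without any 1 of 4 arrays (highest adjusted p = 0.108). In glycerol metabolism GCY1 and the kinase gene DAK1 (-0.24 ± 0.06) fell and DAK2 (0.50 ± 0.12) rose among 11 genes, DAK2 not passing without replicate 3 at 120 min (adjusted p = 0.051).

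Mating genes were checked against the known type of the strain. MFA2 for the a-factor pheromone rose from 342, 351 and 260 to 741, 759 and 777 (1.02 ± 0.12), and MFA1 from 803, 739 and 658 to 1107, 1823 and 1632 (0.92 ± 0.12), with replicate 1 the lowest at 240 min. The 2 genes are similar, and their signals may overlap. Of 7 a-specific genes 3 rose, and of 4 alpha-specific genes 0 were called. Signals of the alpha-specific genes MF(ALPHA)1 and SAG1 were 358 to 638 and 263 to 420 on the 6 heat arrays, and those of the a-specific receptor gene STE2 were 67.9 to 139. On the control arrays of 120 min the mean signals of MF(ALPHA)1, SAG1, MF(ALPHA)2 and STE3 were 1004, 607, 135.5 and 47.5. The a-specific genes MFA1, MFA2, STE2, STE6, BAR1 and ASG7 had 134, 476, 74.4, 138, 50.3 and 302 there. On these control arrays the highest signals were thus those of alpha-specific genes, which does not match the known type. On each of the 6 heat arrays the a-specific MFA1 was instead the highest, at 658 to 1823. Levels of different probe sets cannot be compared, so these values do not settle the type. In the haploid and pheromone response group 2 of 12 rose and 1 fell, with FIG1, a membrane protein of mating, at 0.51 ± 0.08.

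Of the stress transcription factors 13.6% were called and of the Ras and protein kinase A genes 16.7%, against 21.0% of all tested genes. HSF1, the gene of the heat shock factor, had a change of 0.01 ± 0.08, below 0 on the deposited and median scales, and MSN2 one of 0.16 ± 0.08, neither past the threshold, while MSN4 rose by 0.27 ± 0.08. Of 22 stress transcription factors 3 rose and 0 fell, the other two being the repressor gene NRG1 at 0.51 ± 0.15 and HAP4, of the respiratory program, at 0.45 ± 0.13. The HAP4 groups overlapped. Calls for MSN4, NRG1 and HAP4 ended without replicate 1 at 240 min (adjusted p of 0.058, 0.074 and 0.107). In the Ras and protein kinase A list 1 of 18 rose and 2 fell, with the cyclase gene CYR1 at -0.31 ± 0.08, RAS2 at -0.38 ± 0.13 and RGS2 at 0.21 ± 0.05, the last with overlapping groups. RAS2 and RGS2 did not pass without replicate 1 at 240 min (adjusted p = 0.064 and 0.067), among others. ACT1, actin, had a change of 0.02 ± 0.05, which lay below 0 on the deposited scale.

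Of 20 genes of mRNA decay and stress granules LSM1 fell, of 33 secretory genes SEC8 rose and SEC17 fell, of 22 genes of meiosis DMC1 and NDT80 fell and SPS4 rose, of 19 genes of fatty acid oxidation CRC1 and YAT2 rose, and of 19 efflux genes RSB1 rose by 0.60 ± 0.13. Of 12 seripauperin and anaerobic genes 3 rose and 2 fell, with the wall protein gene TIR1 at 0.48 ± 0.07, the ADP/ATP carrier gene AAC3 at 0.36 ± 0.10 and HEM13, of heme synthesis, at 0.36 ± 0.12. The calls of LSM1, SEC8, SPS4, CRC1, HEM13 and AAC3 ended when 1 or more single arrays were left out, with adjusted p up to 0.233 over the named genes of these lists and of autophagy. The gene OTU1, chosen after its values were seen, fell by 0.65 ± 0.06. INA1 rose from 243, 167 and 136 to 932, 683 and 644 (1.55 ± 0.13), with its groups far apart.

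Most late changes ran opposite to those of the first 30 min. At 30 min of heat, against the control at 0 min, 2303 genes were higher (40.7%) and 2272 lower (40.2%), and these arrays are not among those of the late comparison. Of the 568 genes that rose from 120 to 240 min, 373 (65.7%) had been lower at 30 min and 116 (20.4%) higher, the former being 16.4% and the latter 5.04% of the 30 min lists. Of the 622 that fell, 423 (68%) had been higher and 113 (18.2%) lower, or 18.4% and 4.97% of the 30 min lists. Across all genes the correlation of the changes was -0.359. Against the time-matched controls the rising genes stood at a median log2 difference of -0.37 at 120 min and 0.00 at 240 min, and the falling genes at 0.43 and 0.06. Closer to their controls at 240 than at 120 min were 375 of the 568 rising and 454 of the 622 falling genes. Over all 5656 tested genes the same held for 3538. These last values share arrays with the calls and are given as description. Some genes instead moved further from their time-matched controls. PHO3 was 0.54 above its control at 120 min and 2.23 above it at 240 min, while TPO2 had differences of 2.24 and 3.28 and MFA1 of 1.77 and 2.73. PHO84 was at -1.71 and then at -2.60. SHM2 and GCV3, at -1.49 and -1.12 at 120 min, were at -2.08 and -2.16 at 240 min.

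The neighbouring intervals, which share arrays with this one, held 1923 calls from 60 to 120 min (34.0%), 36 of them at 2-fold, and 458 calls from 240 to 360 min (8.10%), 2 of them at 2-fold. APE1 had changed by -1.35 from 60 to 120 min before its rise of 1.69, and by 0.14 from 240 to 360 min. Relative to the control at 0 min, the median of the general stress genes at 30, 120, 240 and 360 min was 3.32, 2.16, 1.78 and 1.47. For ribosome biogenesis the medians at these times were -1.67, -0.57, -0.38 and -0.24. Proteasome genes were at 0.68 at 30 min, 0.33 at 120 min and 0.02 at 240 min. Mitochondrial ribosomal genes were at 0.04, 0.26 and 0.04, so that their level at 120 min stood above that at 30 min and at 240 min. For cytosolic ribosomal proteins the medians were -2.29, -0.28 and -0.29.

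**Figure D5:**
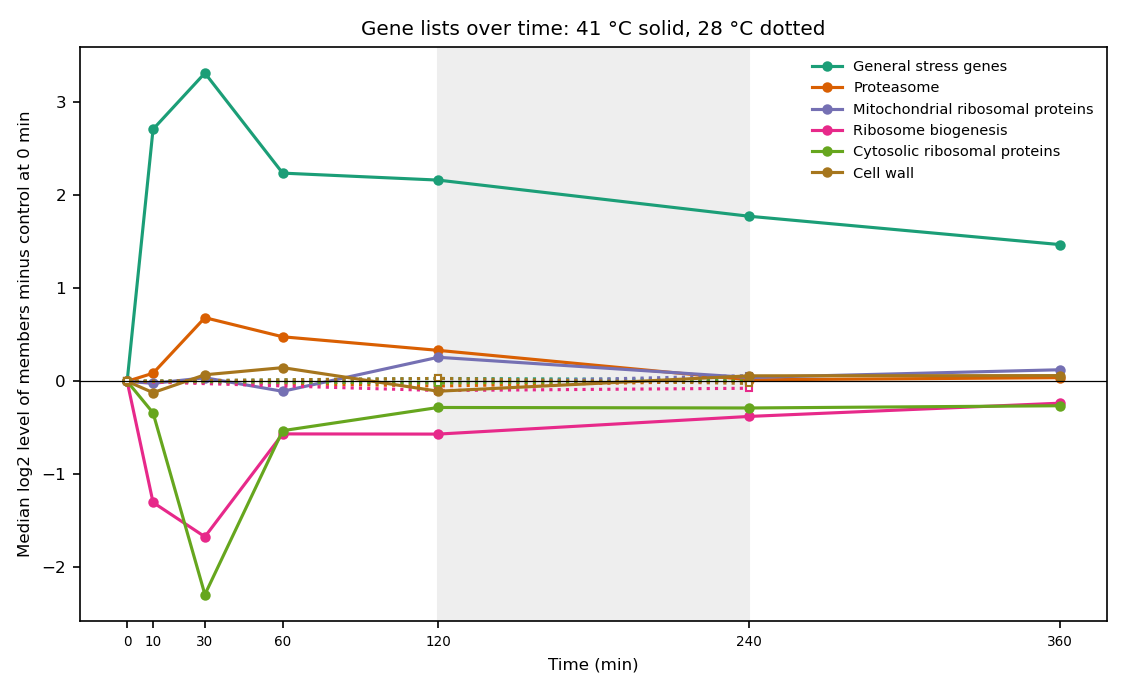
Median log2 level of the measured members of 6 gene lists, relative to the control at 0 min (vertical axis), against time in min (horizontal axis), with heat as solid lines and control as dotted lines. The grey band marks 120 to 240 min, over which general stress genes went from 2.16 to 1.78 and ribosome biogenesis from -0.57 to -0.38.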

How the data were processed

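The authors deposited 1 linear intensity for each probe set on each array. Per the submitters' processing notes these come from MAS5 (version and scaling target: not given in the sources used here). Of 9335 probe sets 60 are array controls, 6504 name 1 gene, 328 several and 2443 none. Where a gene had more than 1 probe set (315 genes), its brightest by mean signal stood for it, which gave 5656 genes. Array medians over these genes differed by a ratio of 1.28, above a set limit of 1.2, so the arrays were quantile normalized, and log2 values were taken after adding 115. With 3 arrays per group, the number of arrays limits the precision.

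Models were fitted in R 4.3.3 with limma 3.58.1 on all 27 arrays, with 9 group means, eBayes with a trend and Benjamini-Hochberg adjustment over all genes. Changes are given ± SE. On simulated data the test called 99 of 100 genes changed by a log2 value of 1, 91 of 100 changed by 0.5 and 6 of 5456 left unchanged. The simulated noise was independent, with 1 SD per gene for all groups. In the data the median SD was 0.109 at 120 min of heat and 0.0647 in the control at 240 min. The simulation therefore checks the code and cannot give the rate of false calls on the real arrays.

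The design text says that the same cultures were sampled at each time. Deviations of same-numbered heat arrays correlated at 0.14, 0.13 and 0.36, and those of the control arrays at -0.092, -0.62 and -0.14, while control arrays of different numbers reached 0.61 (1 with 2) and 0.62 (2 with 3), so the numbers of the control arrays may not follow 1 culture across both times. The results come from the fit without the replicate number or the culture as a block. Other settings tried concerned scaling, offset, a filter on level, the choice among probe sets, the variance trend, the arrays fitted, the block, a term for background level and the omission of single arrays.

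Named genes were the 15 largest rises and 15 largest falls among genes called, with separate groups and a higher mean above the median level, up to 3 called members with the largest change per list, and 20 fixed genes, 161 in all. The genes and the 54 lists (1579 genes, 1478 measured) were chosen with earlier results of these data known. A planned search of promoter sequences was not run.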

Additional observations from a re-analysis of the deposited data

Results flagged for a closer look

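The change from 120 to 240 min differed between the heat and the control cultures for 601 genes, by the test of the difference itself in limma with Benjamini-Hochberg adjustment over all genes. Among the 161 genes named, 98 were in that number. Their differences are given below in log2 units as the change under heat minus the change in the controls, so that a positive value means a greater rise, or a lesser fall, under heat. In the controls no gene passed the test of its own change.

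Positive differences were found first of all in genes of the wall and of cell separation, namely DSE2 (1.80), PRY2 (1.47), CTS1 (1.42), DSE4 (1.36), SUN4 (1.35) and SCW11 (1.21). Genes of division and its timing were HTB2 (1.34), RME1 (1.14), PCL9 (0.57), CLB6 (0.46), CLN2 (0.45), ALK1 (0.44) and HOF1 (0.42). Ribosome production was represented by SNR45 (1.22), NSR1 (1.13), DBP2 (1.11), DHR2 (0.80), RPA135 (0.65) and RPA190 (0.43). Genes of mating were MFA2 (1.13), MFA1 (0.96) and FIG1 (0.57). Those of nitrogen, amino acid, polyamine and purine metabolism were AAH1 (1.62), CAR1 (1.31), GDH3 (1.03), TPO2 (1.05), MEP2 (0.85), GAP1 (0.84), GNP1 (0.83), DAL3 (0.81), LYS9 (0.56) and GUA1 (0.54). Genes of phosphate, thiamine, metal and sugar uptake or use were PHO3 (1.68), PHO5 (0.91), THI7 (0.57), IZH1 (1.01), FET4 (0.76), FET3 (0.54) and HXT4 (0.91). Lipid genes were OLE1 (1.02), FAA4 (0.99), FAS2 (0.68), NCP1 (0.54), MVD1 (0.48), PIS1 (0.42) and YAT2 (0.46). Carbon metabolism held ALD6 (0.49), DAK2 (0.60), CIT2 (0.43), CIT3 (0.33) and PYC1 (0.31). The vacuole and autophagy held APE1 (1.41) and ATG5 (0.46). The remaining positive differences were those of INA1 (1.68), SUR7 (0.73), YRO2 (0.63), TIR1 (0.54) and AAC3 (0.50).

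Negative differences were found in genes of chaperones and their partners, namely SBA1 (-0.52), SSE2 (-0.46), HSP104 (-0.43), XDJ1 (-0.43), ZIM17 (-0.39) and TAH1 (-0.28). The proteasome and its shuttle factors were represented by RPN13 (-0.70), RPN8 (-0.65), PUP2 (-0.60) and DSK2 (-0.42), and mitochondrial ribosomes by MRPS16 (-0.69), MRPL49 (-0.60) and MRPS8 (-0.55). Stress, reserve and redox genes were GPX1 (-0.93), GCY1 (-0.79), ALD3 (-0.71), RTC3 (-0.70), PGM2 (-0.63), AIM17 (-0.63), FMP16 (-0.62), PFK26 (-0.58), GND2 (-0.54) and TPS1 (-0.35). Respiratory genes were SDH9 (-0.79), CYC7 (-0.74) and STF1 (-0.54). Genes of sulfur and one-carbon metabolism were GCV3 (-1.04), JLP1 (-0.94), BDS1 (-0.81), GCV1 (-0.79), MET1 (-0.61) and SHM2 (-0.59). Transporters were represented by AGP3 (-1.09) and PHO84 (-0.89), and vacuolar inhibitors by PAI3 (-0.54) and TFS1 (-0.49). The remaining negative differences were those of YPS6 (-0.76), OPI3 (-0.58), SEC17 (-0.39) and CYR1 (-0.35).

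For 29 of these 98 genes the difference did not pass when at least 1 of the 12 arrays concerned was left out, with adjusted p up to 0.157. They were AAC3, ALD6, ATG5, CLN2, CYR1, DAK2, DAL3, DSK2, FET3, FMP16, GAP1, GND2, HOF1, HSP104, JLP1, OPI3, PAI3, PFK26, PIS1, PYC1, RPN8, SBA1, SEC17, SSE2, STF1, TAH1, THI7, TPS1 and ZIM17. With the replicate number as a block, the differences of TAH1 (adjusted p = 0.054) and DSK2 (0.063) did not pass. Some genes outside these 29 also lost their call. On the deposited scale 19 of the 98 differences did not pass. Among them, and not among the 29, were ALK1, CIT2, GUA1, LYS9, MVD1, NCP1, RPA135, SUR7 and YRO2, each a positive difference. With the mean of all probe sets 5 did not pass, including FAS2 and RPA190, also outside the 29.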

How the results depend on the processing

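Of 161 named heat changes, 95 kept their direction and their side of the threshold under all alternatives run, as did 58 of 98 named differences from the controls. The count of 1190 genes became 713 among genes above the median level and 549 with the 6 arrays alone, where fewer genes or arrays entered. The count of 21 genes at 2-fold became 47 with an offset of 0 and 37 with an offset of 32, which shrink changes of dim genes less. The count of 601 differences became 397 among genes above the median level. Leaving out 1 array at a time gave 791 to 1135 genes, 19 to 33 at 2-fold, 386 to 739 differences and 0 to 0 control calls, with 791 and 399 without replicate 1 at 240 min of heat, 33 without replicate 1 at 120 min and 386 without replicate 3 at 120 min. With the replicate number as a block 1285 genes passed (606 higher, 679 lower), 1164 of them shared with the fit without it, and 701 differences, a count that depends on control arrays whose numbers may not pair them. The replicate block ended the calls named beside HRD1, TAH1 and DSK2 and changed no other named call. It joins heat and control cultures that share a number. With each of the 6 cultures as a random block (consensus correlation 0.0859) 1354 genes passed (639 higher, 715 lower), including all 1190. Differences then passed for 733 genes, and of the named calls only RNR1 changed, which then passed. This fit rests on the same replicate numbers. With a term for background level 1508 genes passed (692 higher, 816 lower), including all 1190. Differences then passed for 810 genes, and no named call changed.

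Signs turned only for named changes near 0 that did not pass. On the deposited scale the values were -0.037 for ACT1, -0.084 for RPL13A and -0.046 for HSF1, and with equal medians -0.033 for RPL13A and -0.00024 for HSF1. HAC1 was at 0.042 with the mean of all probe sets. Without single arrays the values ran from -0.020 to 0.078 for ACT1, -0.020 to 0.048 for RPL13A, -0.052 to 0.099 for HSF1, -0.083 to 0.028 for HSP82, -0.15 to 0.12 for HAC1 and -0.15 to 0.0097 for RPN4. The cause was not tested. Dim genes are limited by signal over background, since no detection calls were used and 8 genes lay at the floor of 20 on all arrays.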
